A study of Solanum commersonii and Solanum tuberosum with 8 samples.

Results

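The leaf transcriptome of cultivated potato, Solanum tuberosum, after 7 d at 2°C was described from the single column of ratios that holds this treatment. This column is 1 of 8 in the series and gives 1 log2 ratio for each of 11366 array clones. Every clone was included, and the column was chosen by its label and not by any measured value. The plants were wild type and had spent 3 weeks at 25°C under a day of 16 h light and 8 h dark, and they were moved to the cold 8 h into the light period. Their controls were S. tuberosum wild-type plants kept at 25°C and harvested after 24 h, so the cold plants were older than the controls when harvested. The labels give a light intensity of 50 in the cold and of 350 in the warm, in one unit, and an effect of light cannot be told apart from one of temperature. The value of each clone combines 3 slides, and 3 independent cold experiments are given in the labels.

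The other columns served as context. They hold S. tuberosum wild type after 2 h and 24 h of cold, the wild potato Solanum commersonii after 2 h, 24 h and 7 d of cold, and warm-grown plants of each species that carry 35S::AtCBF3, all against warm wild type of the same species. The promoter 35S drives the Arabidopsis gene CBF3 in most tissues of the plant, and the transgenic columns combine 3 S. commersonii lines and 2 S. tuberosum lines. The 2 h cold plants had controls kept warm for 2 h, while those of 24 h and 7 d had a common control within a species, kept warm for 24 h. Whether the wild type set against the transgenic lines was also used for the cold columns is not stated. One field of the transgenic S. tuberosum sample names S. commersonii as the genotype, against its title and organism, and the sample was taken as S. tuberosum.

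Many temperate plants gain freezing tolerance during days in the cold, a process called cold acclimation. S. commersonii tolerates freezing and acclimates, whereas the cultivated potato is freezing-sensitive and acclimates little or not at all. CBF proteins are transcription factors that are induced soon after a fall in temperature and activate a set of cold-responsive genes in Arabidopsis, and constitutive CBF expression switches on part of the cold response in the warm. Genes of growth and of the photosynthetic apparatus are often lowered in Arabidopsis during long exposure to cold.

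Each column carries no error of its own, since values per slide were not analysed here, and no test between conditions was possible. Results are therefore sizes, ranks and counts. A positive ratio was read as higher in the cold plants because the labels put the cold RNA in channel 1. The direction itself is not stated, and the order of the channels does not settle it. If the ratio ran the other way, higher and lower would change places throughout. The clones are cDNAs known here by identifiers such as STMFB08, which the files do not pair with genes, so clones and not genes were counted and several clones can carry the same gene. Whether the RNA was of leaf origin could not be checked with marker genes for the same reason.

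After 7 d of cold the response of S. tuberosum was tilted towards lower transcripts. At least 2-fold lower were 730 clones (6.42% of all clones), and 459 were 2-fold higher or more (4.04%). Most of the array stood close to the control, with 8478 clones (74.6%) under 1.5-fold in either direction. The signs were nearly balanced over the whole array, where 5581 clones lay above 0 and 5785 below, and the median was -0.008. The tilt thus lay in the tails. The central spread of the column, an SD estimated from the median absolute deviation, was 0.435 on the log2 scale. This was wider than in the S. tuberosum columns for 2 h (0.22) and 24 h (0.37). The plain SD, which also takes in the tails, was 0.656 at 7 d, against 0.51 at 2 h and 0.80 at 24 h.

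The larger the change, the more it was downward. There were 1.20 lower clones for each higher clone at 1.5-fold (13.8% and 11.6% of all clones), 1.59 at 2-fold, 2.72 at 3-fold (2.63% and 0.968%) and 3.46 at 4-fold. At 4-fold the numbers were 173 lower (1.52%) and 50 higher (0.44%), and at 8-fold 29 lower (0.255%) and 7 higher (0.0616%). The 1st percentile of the column was -2.26, and the 99th percentile was 1.57. In rank order, the 100th clone from the bottom was 5.25-fold lower, while the 100th from the top was 3.16-fold higher. The same tilt was present in S. commersonii after 7 d, with 1.26 lower clones per higher clone at 1.5-fold, 1.75 at 2-fold and 3.78 at 4-fold. At 24 h in S. tuberosum the tails ran the opposite way, with 657 clones at least 4-fold higher (5.78%) and 5 lower (0.044%). The edge of the 2-fold lists was continuous: the last clone counted as higher had a log2 ratio of 1.0019 and the next one 0.9984.

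**Figure D1:**
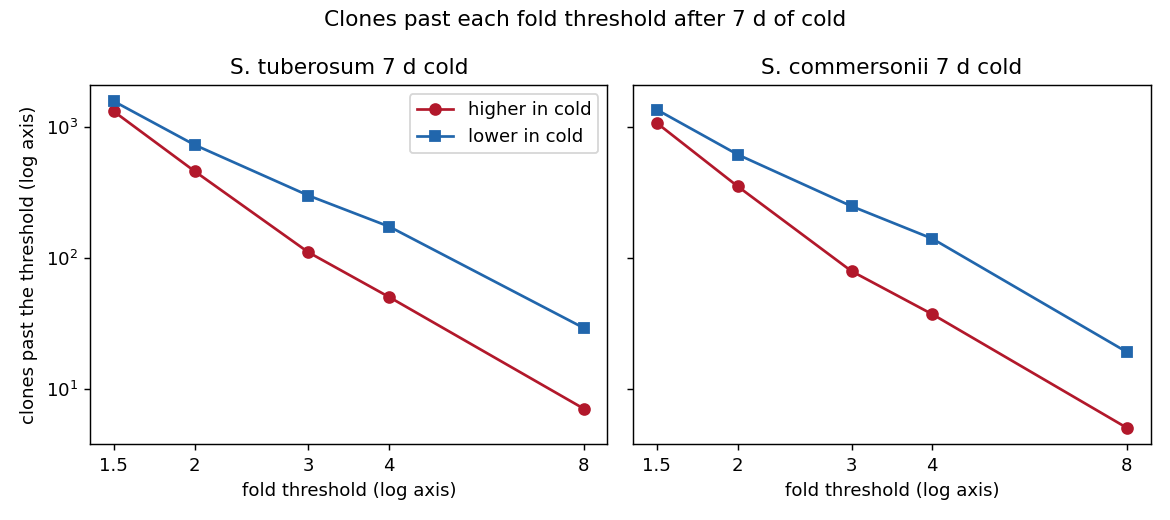
Number of clones past each fold threshold after 7 d of cold in S. tuberosum (left) and S. commersonii (right). Both axes are logarithmic; circles are clones higher in the cold and squares clones lower in the cold. In both species the curves part as the threshold grows, up to 29 lower and 7 higher clones at 8-fold in S. tuberosum.

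The ends of the ranking are shown by the 2 highest and the 2 lowest clones. STMFB08 was the highest. In S. tuberosum its log2 ratio was 1.91 after 2 h, 3.35 after 24 h and 4.02 after 7 d of cold, the last a 16.3-fold difference. It was already high at 2 h. In S. commersonii it stood at 1.32, 2.43 and 2.46 at the same times and ranked 17th from the top after 7 d. STMHS17, the second highest, differed from it in its start: its ratios in S. tuberosum were -0.08, 3.28 and 3.83, so the clone was at the control level at 2 h and 14.2-fold higher at 7 d. In S. commersonii it was at 0.37, 2.21 and 3.57. Both clones were also high in the transgenic plants, where STMFB08 was at 2.43 in S. tuberosum and 3.51 in S. commersonii, and STMHS17 at 2.39 and 4.60.

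At the other end, STMCZ35 passed from 2 h through 24 h to 7 d with log2 ratios of 0.19, -0.97 and -4.20 in S. tuberosum, and was 18.3-fold lower at 7 d. In S. commersonii it followed the same course with 0.17, -0.76 and -3.41. STMCN12 was at 0.13, -1.15 and -3.77 in S. tuberosum and at -0.03, -1.23 and -3.31 in S. commersonii. Neither clone was below the control by more than a few percent at 2 h in either species. On the log2 scale most of the decrease came after 24 h. With 35S::AtCBF3 in the warm STMCZ35 was at -2.54 in S. tuberosum and -1.10 in S. commersonii, and STMCN12 at -2.02 and -1.22. These lowest clones ranked 6th and 9th from the bottom in S. commersonii after 7 d.

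**Figure D2:**
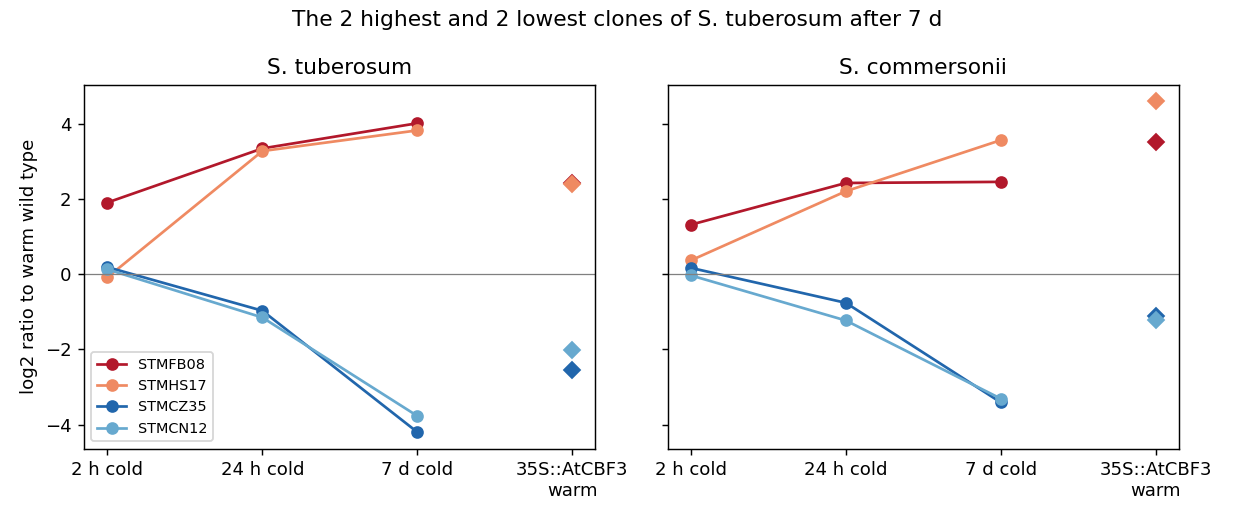
Log2 ratios to warm wild type (y axis) of the 2 highest and the 2 lowest clones of S. tuberosum after 7 d, through 2 h, 24 h and 7 d of cold (circles joined by lines) and with 35S::AtCBF3 in the warm (diamonds), in S. tuberosum (left) and S. commersonii (right). Each point is 1 combined value with no error. STMFB08 and STMHS17 were near their 7 d ratio by 24 h in S. tuberosum, at 3.35 and 3.28, whereas STMCZ35 and STMCN12 were at -0.97 and -1.15 at 24 h.

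Large increases and large decreases followed different time courses. The 50 clones at least 4-fold higher at 7 d stood in S. tuberosum at a median log2 ratio of 0.17 after 2 h, 2.33 after 24 h and 2.18 after 7 d. They were thus as high at 24 h as at 7 d. The 173 clones at least 4-fold lower had medians of 0.07, -0.68 and -2.46 at these times, so that the lower clones had moved 1.60-fold at 24 h and 5.50-fold at 7 d. The 24 h and 7 d columns of S. tuberosum share a control, and an error in that control would enter both ratios. The S. commersonii columns share no RNA with S. tuberosum, and there the same 50 clones had medians of 0.34, 1.41 and 1.92, against 0.03, -0.44 and -2.19 for the 173 clones. In both species the strongly lower clones were therefore late, and the strongly higher clones were at least partly in place at 24 h.

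Clones chosen for a smaller 7 d change were followed in the same way. For the 409 clones 2- to 4-fold higher at 7 d, the S. tuberosum medians through the 3 times were -0.05, 0.54 and 1.23, and those of S. commersonii -0.01, 0.23 and 0.97. Here the 24 h value was less than the 7 d value in both species, unlike the 50 clones at the top in S. tuberosum. The 557 clones 2- to 4-fold lower had medians of 0.02, -0.40 and -1.30 in S. tuberosum and of 0.01, -0.29 and -1.03 in S. commersonii. Medians in the 35S::AtCBF3 columns were ordered by the size of the 7 d ratio. In S. tuberosum they were 1.17 for the 4-fold higher, 0.54 for the 2- to 4-fold higher, -0.96 for the 2- to 4-fold lower and -1.58 for the 4-fold lower clones. The same 4 groups stood at 1.05, 0.35, -0.38 and -0.78 in S. commersonii. The S. commersonii column shares no RNA with the ratio that chose the groups. For the S. tuberosum 35S::AtCBF3 column a shared control is not stated, and an error in such a control would enter both ratios. The median of all clones lay between -0.01 and 0.01 in every column.

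**Figure D3:**
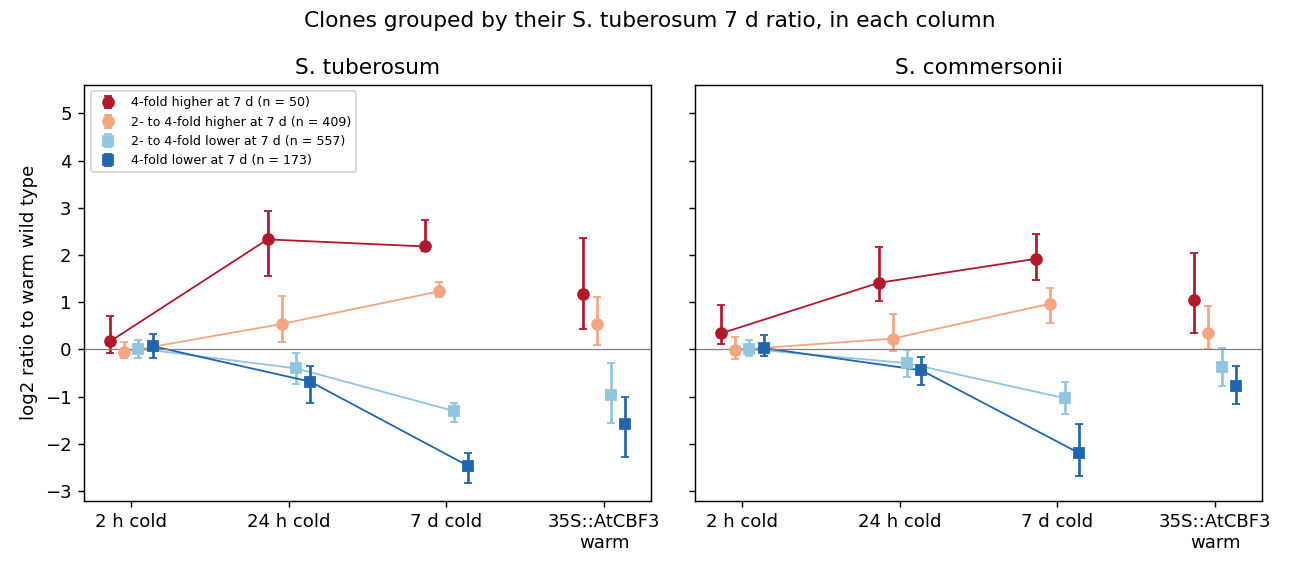
Median log2 ratio to warm wild type (points) with the quartiles (bars) of 4 groups of clones, chosen by the size of their S. tuberosum 7 d ratio, after 2 h, 24 h and 7 d of cold and with 35S::AtCBF3 in the warm. The left panel is S. tuberosum, where the groups were chosen at 7 d, and the right panel S. commersonii. The 50 strongly higher clones reach 2.33 at 24 h in S. tuberosum, while the 173 strongly lower clones stand at -0.68 at 24 h and -2.46 at 7 d.

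Most clones of the 2 h response were near the control after 7 d. The 2 h and 7 d columns have separate controls. Of the 459 clones higher at 7 d, 37 had been at least 2-fold higher at 2 h in S. tuberosum (8.06%, exact 95% interval 5.74 to 10.9%), where 7.87% of all clones were. Seen from the other list, 37 of the 895 early clones (4.13%) were higher at 7 d, close to the 4.04% of all clones. This differed with the size of the 2 h ratio: 24 of the 782 clones 2- to 4-fold higher at 2 h (3.07%) were higher at 7 d, and 13 of the 109 clones 4- to 8-fold higher (11.9%). Of the 4 clones at least 8-fold higher at 2 h, 0 were. For clones chosen at 2 h in S. commersonii the order was the reverse. There 33 of 577 clones 2- to 4-fold higher (5.72%) were higher at 7 d in S. tuberosum, 15 of 568 clones 4- to 8-fold higher (2.64%) and 0 of 96 at least 8-fold higher. The 895 early clones of S. tuberosum ended slightly under the control, with a median of -0.11 at 7 d (quartiles -0.35 and 0.17) and 553 of 895 below 0 (61.8%), against 50.9% of all clones. The share differed with the size of the 7 d ratio: 11 of the 50 clones at least 4-fold higher (22.0%, 11.5 to 36.0%) had been high at 2 h, and 26 of the 409 clones 2- to 4-fold higher (6.36%, 4.19 to 9.18%). Those 11 clones stayed high throughout in S. tuberosum, where their medians through the 3 times were 2.03, 2.52 and 2.40. In S. commersonii at 2 h, 48 of the 459 clones were higher (10.5%, 7.81 to 13.6%), against 10.9% of all clones. That share was 17.7% with all columns scaled to one spread and 0 for the 100 highest clones of each column. Neither value can be set against 10.9%, since both choices change the 2 h list itself. The top list holds 100 of the 11366 clones, and the size of the scaled list was not recomputed.

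Early decreases were few. Of the 38 clones at least 2-fold lower at 2 h in S. tuberosum (0.334% of all clones), 15 were also lower at 7 d. They made up 39.5% of the early list, against 6.42% of all clones lower at 7 d, and 2.05% of the 7 d list. The opposite change was seen for 5 of the 38 clones (13.2%), which were at least 2-fold higher at 7 d, against 4.04% of all clones. Of these 15 clones, 13 were among the 173 clones at least 4-fold lower at 7 d. By contrast, 25 clones of the 730 had been 2-fold higher at 2 h (3.42%, 2.23 to 5.01%), fewer than the 7.87% of all clones.

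The 7 d response of S. commersonii, the freezing-tolerant species, was closely alike. Among the 50 clones at least 4-fold higher in S. tuberosum, 45 were also 2-fold higher in S. commersonii (exact interval 78.2 to 96.7%), where 3.10% of all clones were, and these were 12.8% of the 352 clones on the S. commersonii list. Of the 173 clones at least 4-fold lower, 148 were lower in S. commersonii (85.5%, 79.4 to 90.4%), against 5.42% of all clones, and they formed 24.0% of its 616 lower clones. Fewer of the smaller changes passed 2-fold in S. commersonii: 189 of the 409 clones 2- to 4-fold higher (46.2%) and 292 of the 557 clones 2- to 4-fold lower (52.4%). Most of the rest moved the same way without reaching 2-fold, since 432 of all 459 higher clones were above 0 in S. commersonii and 708 of the 730 lower clones below 0. Clones just past 2-fold miss a fixed 2-fold cut-off more easily, so the cut-offs favour this contrast between large and small changes. With one cut-off in both species, the shared part of the higher clones was 58.1% at 1.5-fold, 51.0% at 2-fold and 48.2% at 3-fold. For the lower clones it was 63.9, 60.3 and 58.2%. At 24 h in S. commersonii, 96 of the 459 higher clones were at least 2-fold higher (20.9%, 17.3 to 24.9%), against 2.65% of all clones, and made up 31.9% of that list. Of the 730 lower clones 73 were lower there (exact interval 7.92 to 12.4%), against 1.24% of all clones, or 51.8% of that list. None of the 459 was 2-fold lower and none of the 730 was 2-fold higher at 24 h in S. commersonii. All of the 10 highest and the 10 lowest clones of S. tuberosum were among the first 100 at the same end in S. commersonii.

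The median size of the 7 d change differed little between the species, and the gap depended in part on the column that chose the clones. For the 459 clones higher in S. tuberosum the median was 1.28 in S. tuberosum and 1.02 in S. commersonii. For the 352 clones higher in S. commersonii the order turned, with 1.18 for S. tuberosum and 1.27 for S. commersonii. The median difference, S. tuberosum minus S. commersonii, was 0.34 for the 459 clones and -0.13 for the 352. When clones were chosen by the mean of the 2 columns, 348 were higher with medians of 1.36 in S. tuberosum and 1.26 in S. commersonii, and 630 were lower with medians of -1.49 and -1.43. Under this choice the change was still larger in S. tuberosum for 203 of the higher and 370 of the lower clones. It was smaller there for 145 and 260. Over all clones the 2 ratios lay within 1.5-fold of each other for 10251 clones (90.2%). They were at least 2-fold apart for 274 clones (2.41%). Both counts are out of all clones, of which 8478 (74.6%) were under 1.5-fold in S. tuberosum, so they say little about the clones that changed. With 1 value per column, none of these differences could be set against an error.

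**Figure D4:**
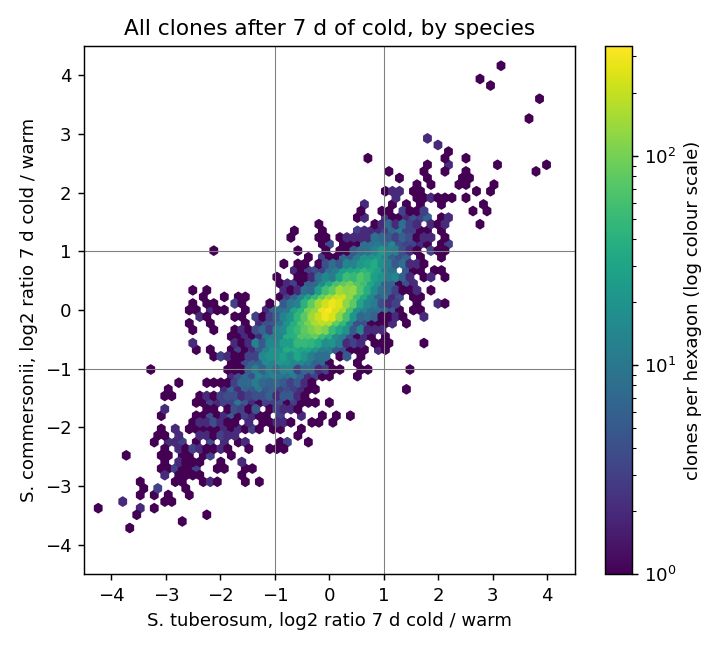
Log2 ratio after 7 d of cold in S. tuberosum (x axis) and in S. commersonii (y axis) for all 11366 clones; the colour of a hexagon gives the number of clones on a log scale, and grey lines mark 2-fold. Most clones lie along the diagonal. The 19 clones chosen as at least 4-fold lower in S. tuberosum and under 1.5-fold in S. commersonii lie at the left. Their S. tuberosum ratios are between -2.56 and -2.07.

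A group of clones was strongly lower in S. tuberosum alone. It was defined after the values had been seen, as clones at least 4-fold lower in S. tuberosum after 7 d and under 1.5-fold in S. commersonii. These cut-offs set the 7 d contrast between the species in advance. The group held 19 of the 173 clones at least 4-fold lower in S. tuberosum, from 17 of the 157 blocks of clone names. Whether the clones carry 1 gene is not known. In S. tuberosum their 7 d ratios ran from -2.56 to -2.07 with a median of -2.28, while in S. commersonii they ran from -0.56 to 0.34 with a median of -0.02. In the other S. tuberosum columns their medians were -0.15 at 2 h, -0.60 at 24 h and -1.08 with 35S::AtCBF3. The corresponding medians in S. commersonii were 0.26, 0.07 and -0.02. The middle part of the group was narrow in S. tuberosum, with quartiles of -0.68 and -0.42 at 24 h and of -1.32 and -0.88 with 35S::AtCBF3. The full ranges were wide, from -2.45 to 0.32 at 24 h and from -6.81 to 1.86 with 35S::AtCBF3. The 24 h column shares its warm control with the 7 d column that chose the clones. Whether the 35S::AtCBF3 column does so is not stated. An error in that control could enter these ratios too, so they are not a separate check of the group. The mirror group, at least 4-fold lower in S. commersonii and under 1.5-fold in S. tuberosum, held 1 of 140 clones at least 4-fold lower in S. commersonii. That clone was at -0.43 in S. tuberosum and -2.24 in S. commersonii. A pair of clones, 2 in all, was at least 4-fold higher in S. tuberosum and under 1.5-fold in S. commersonii after 7 d. Those were at 3.40 and 3.43 at 24 h in S. tuberosum and at 1.02 and 1.04 in S. commersonii, and both were lower with 35S::AtCBF3, at -3.33 and -3.59 in S. tuberosum and at -2.86 and -2.79 in S. commersonii.

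The clones of the 7 d response were set against AtCBF3 in S. commersonii, the transgenic column that shares no RNA with S. tuberosum. Of the 50 clones at least 4-fold higher at 7 d, 26 were at least 2-fold higher with AtCBF3 (52.0%, 37.4 to 66.3%), where 5.81% of all clones were. The share was 22.0% of the 409 clones 2- to 4-fold higher. Of the 173 clones at least 4-fold lower, 59 were 2-fold lower with AtCBF3 (34.1%, 27.1 to 41.7%), against 3.11% of all clones, and of the 557 clones 2- to 4-fold lower, 85 were (15.3%). From the side of AtCBF3, the 116 clones higher in both made up 17.6% of its 660 higher clones, and the 144 clones lower in both made up 40.8% of its 353 lower clones. Opposite changes also occurred. A set of 18 clones higher at 7 d (3.92%) was 2-fold lower with AtCBF3, near the 3.11% of all clones, and 39 of the lower clones (5.34%) were 2-fold higher with it, near the 5.81% of all clones.

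Among these opposite clones, 5 stood out for the size of both changes, a choice made after their values had been seen. They were at least 8-fold lower in S. tuberosum at 7 d and at least 8-fold higher with AtCBF3 in S. commersonii. Their ratios in S. tuberosum ran from -2.22 to -1.11 at 2 h, from -1.76 to -1.49 at 24 h, from -3.11 to -3.05 at 7 d and from 3.37 to 4.55 with 35S::AtCBF3. In S. commersonii they ran from -1.52 to -0.33, from 0.13 to 0.72, from -2.10 to -1.46 and from 5.04 to 5.47. All 5 were thus lower after 7 d of cold in both species and strongly higher in both sets of transgenic plants, and they differed between the species at 24 h. The clones came from 5 name blocks, and whether they carry 1 gene is not known. All 5 are among the 15 clones described above as lower at both 2 h and 7 d in S. tuberosum, so the 2 sets are not separate observations. In all, 64 clones (0.563%) were at least 8-fold higher with AtCBF3 in S. commersonii. After 7 d of cold in S. tuberosum 18 of these were at least 2-fold higher, where 4.04% of all clones were, and 12 were at least 2-fold lower, where 6.42% of all clones were. The 12 include the 5 clones above. The median of the 64 was 0.22.

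Lower clones were unevenly spread over the clone names. Names on this array start with STMC to STMJ, followed by a further letter and a position from 1 to 96. The 1538 clones named STMC, 13.5% of the array, held 245 of the 730 clones lower at 7 d in S. tuberosum (33.6%) and 79 of the 173 clones at least 4-fold lower (45.7%). Of STMC clones 15.9% were lower (exact interval 14.1 to 17.9%), against 4.93% of all other clones (4.51 to 5.38%). The small STMF series came next, with 14 of 108 clones lower (13.0%, 7.27 to 20.8%). The share of higher clones was 3.58% in STMC, against 4.11% of all other clones. All 24 name blocks of this series had a median below 0, between -0.55 and -0.01, while 48 of the other 133 blocks did. S. commersonii at 7 d showed the same unevenness, with 14.2% of STMC clones and 4.05% of the others lower. In S. tuberosum with 35S::AtCBF3, 17.4% of STMC clones and 5.69% of the others were lower (7.28% of all clones). At 24 h of cold these shares were 3.12 and 1.17% (1.43% of all clones), and at 2 h 0.39 and 0.326%. What distinguishes the STMC names is not given in the sources used here. Without these clones, 404 were higher and 485 lower at 7 d, and the share of higher clones among the changed was 45.4%, against 38.6% with them. The tilt towards lower clones was smaller in the pooled rest of the array but did not turn. At 4-fold the pooled rest held 94 lower and 47 higher clones. Single name series differed. At 2-fold STMD held 85 higher and 64 lower clones, and STMH held 74 higher and 59 lower. In STME, STMF, STMG, STMI and STMJ lower clones outnumbered higher ones at 2-fold. At 4-fold only STMH held more higher clones, 13 against 7 lower. By position in the name, the medians of the 96 positions lay between -0.11 and 0.09 and their shares of lower clones between 2.21 and 13.4%.

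**Figure D5:**
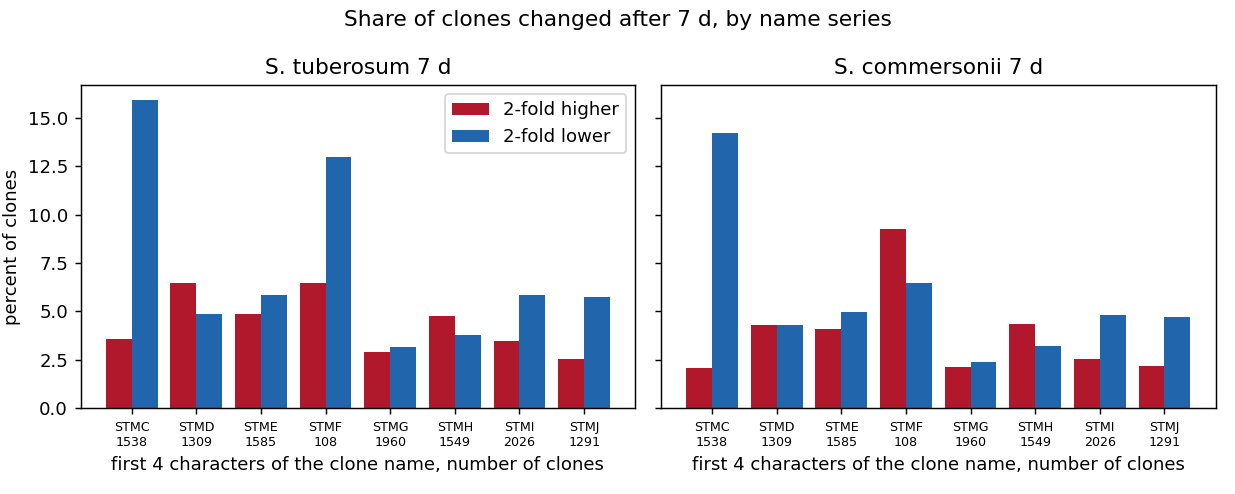
Percent of clones at least 2-fold higher and at least 2-fold lower after 7 d of cold (bars), by the first 4 characters of the clone name with the number of clones under each, in S. tuberosum (left) and S. commersonii (right). The STMC series has the largest share of lower clones in both species, 15.9% in S. tuberosum and 14.2% in S. commersonii.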

How the data were processed

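Leaf RNA was compared on 2-colour cDNA arrays, and the authors deposited 1 log2 ratio per clone and column, without missing values. Per the labels, 3 slides stand behind each value, or 2 in the column of transgenic S. tuberosum. Both dyes are listed for each channel, and an odd number of slides cannot balance them. The submitters' processing notes name limma; how background, normalization, spot filters and the merging of slides were handled is not given in the sources used here. Log base, direction and centring are not stated either: log2 was read from the use of limma, and the direction from the channels in the labels; the values themselves settle neither. Replicates were combined before deposit, so no test, error or p-value was computed, and precision is limited by how few slides there were.

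From these ratios, clones were counted at 2-fold (a log2 ratio of 1 in size) with Python 3.11.15, pandas 2.3.3 and numpy 2.4.6, and shares carry exact Clopper-Pearson 95% intervals (scipy 1.17.1). The intervals describe clones, not plants. They treat clones as independent, are too narrow where several clones carry the same gene, and are not a test against the share of all clones. Counting was tested on simulated data. The clones named are the 2 highest and the 2 lowest of the column, the rule for identifiers with no gene name; gene lists and marker lists could not be matched. Lists, thresholds and alternatives were chosen with earlier results of these data known.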

Additional observations from a re-analysis of the deposited data

Results flagged for a closer look

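After 7 d of cold 1 clone was at least 2-fold higher in S. tuberosum and at least 2-fold lower in S. commersonii, with log2 ratios of 1.42 in S. tuberosum and -1.35 in S. commersonii. It is given because the species moved in opposite directions; the difference was not tested, since each column holds 1 value. No clone was the reverse. Changes under 2-fold were not counted as movement here, and no group held enough samples to look for an outlying one.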

How the results depend on the processing

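Lower clones outnumbered higher ones after 7 d under every threshold, centring and scaling tried. At 1.5-fold there were 1315 higher and 1573 lower clones (45.5% of the changed were higher), at 3-fold 110 and 299 (26.9%), and with columns scaled to one spread 243 and 481 (33.6%). Without the STMC clones, an alternative chosen after seeing the data, 485 were lower and 45.4% of the changed were higher. Of the higher clones, the share also higher in S. commersonii at 7 d was 51.0% at 2-fold, 58.1% at 1.5-fold, 48.2% at 3-fold, 58.0% with scaling and 58.0% for the 100 highest clones of each column. For the lower clones it was 60.3% at 2-fold, 63.9% at 1.5-fold, 58.2% at 3-fold, 68.4% with scaling and 54.4% without STMC clones. The S. commersonii lists at 7 d also changed with the threshold. Of all 11366 clones, 1073 were higher and 1357 lower there at 1.5-fold. At 2-fold these were 352 and 616, and at 3-fold 79 and 248. Medians in S. commersonii at 7 d were 0.65 and -0.77 for clones higher and lower at 1.5-fold, 1.56 and -1.79 at 3-fold, and 1.14 and -1.33 with scaling. Centring on the median left 465 higher and 715 lower clones. The share of higher clones that were also higher at 2 h in S. tuberosum was 8.06% at 2-fold and 12.3% with scaling. Of all clones, 7.87% were higher at 2 h at 2-fold, and this share was not recomputed with scaling. The share of lower clones also lower at 2 h was 2.05% at 2-fold, 6.04% at 1.5-fold, 0.334% at 3-fold, 9.15% with scaling and 17 of the 100 lowest. The 2 h list itself held 184 lower clones at 1.5-fold, 38 at 2-fold and 2 at 3-fold. Shifts in these shares thus cannot be told apart from shifts in the size of the lists. Among the medians recomputed, those at 2 h lay close to 0 at 2-fold and some changed sign: for the higher clones 0.02 at 3-fold in S. tuberosum and -0.02 at 1.5-fold in S. commersonii, and for the lower clones -0.01 at 1.5-fold in S. commersonii. The medians at 24 h, at 7 d and with 35S::AtCBF3 kept their sign. The cause of these shifts was not tested, beyond the thresholds themselves taking in more or fewer clones. Averaging clones of 1 gene and scaling gene lists were not run, since no clone had a gene name. No slide could be left out. No paired analysis was possible because each group has 1 combined column.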
